A study of Mus musculus with 6 samples.

Results

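The D-type cyclins and the cyclin-dependent kinase (CDK) inhibitors were examined in the mouse colon after loss of the histone deacetylases HDAC1 and HDAC2 from the intestinal epithelium. The set held 10 genes, the cyclins Ccnd1, Ccnd2 and Ccnd3, the Cip/Kip inhibitors Cdkn1a, Cdkn1b and Cdkn1c, and the Ink4 inhibitors Cdkn2a, Cdkn2b, Cdkn2c and Cdkn2d. Every probe set whose single gene symbol was one of these names was kept, which gave 22 of the 45037 probe sets and 10 of the 18193 genes on the array. The rule goes by gene symbol and has no threshold on a measured value.

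Total colon RNA was compared between 3 HDAC1/2 deficient mice and 3 control mice on Affymetrix GeneChip mouse genome arrays. The title of each array gives a replicate number, and the study's text gives 3 mice per group. The deficient mice carried floxed Hdac1 and Hdac2 together with a villin-Cre transgene, whose villin promoter is active in intestinal epithelial cells and not in the muscle, stroma or immune cells of the wall. By the study's immunofluorescence, HDAC1 was not detected in the mutant epithelium, whereas some crypts and villi kept HDAC2. The controls were labelled wild type. Both groups were untreated, ate a normal diet and were 4 months old by the study's text, and neither strain nor sex was given in the sources used here. According to the sample labels the RNA came from colon epithelium, but the extraction protocol speaks of the colon as a whole. On every deficient array, RNA of the Y-linked gene Eif2s3y (8.32, 8.49 and 8.22 on the log2 scale, against 3.84, 4.31 and 4.11 on control arrays) stood beside that of Xist, a transcript of the inactive X chromosome (12.01, 11.99 and 12.06, against 12.88, 12.85 and 12.81 on control arrays). Xist was thus high on all 6 arrays and Eif2s3y on the deficient ones alone, so RNA typical of males and of females was read together on each deficient array. The labels do not mention pooling, and whether each array, deficient or control, holds RNA of a single mouse was not tested.

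D-type cyclins bind the kinases CDK4 and CDK6 in G1 phase, and the active complexes phosphorylate the retinoblastoma protein, which then releases E2F factors that switch on S-phase genes. Ink4 proteins bind CDK4 and CDK6 and keep them from the cyclin. Cip/Kip proteins bind the assembled cyclin-CDK complexes, most strongly those of CDK2. In the intestine, cyclin D genes are used by the dividing cells of the crypt, and p21, the product of Cdkn1a, is well known from cells that leave the cycle. CDKN1A is also a widely used example of a gene that rises when histone deacetylases are inhibited, and the GC boxes of its promoter, sites bound by Sp1-type factors, are known for their part in that response.

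The promoter windows of 4 inhibitor genes are given here, from RefSeq on build GRCm38.p6, because these genes moved in opposite directions within their families. Each window is 300 bases around an annotated start and is written 5′ to 3′ on the strand of the gene, with the GC box (GGGCGG, or CCGCCC where it lies on the other strand) in capitals. Cdkn1a and Cdkn2d were higher in deficient colon, and Cdkn1b and Cdkn2b were lower.
Cdkn1a (chr17:29093519-29093818, + strand): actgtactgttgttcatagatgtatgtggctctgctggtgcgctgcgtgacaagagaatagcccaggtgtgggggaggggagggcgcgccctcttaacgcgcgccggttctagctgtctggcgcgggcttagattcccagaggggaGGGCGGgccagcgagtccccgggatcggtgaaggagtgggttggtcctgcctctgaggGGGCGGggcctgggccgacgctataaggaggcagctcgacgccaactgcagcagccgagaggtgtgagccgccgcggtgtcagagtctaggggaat
Cdkn2d (chr9:21291160-21291459, - strand): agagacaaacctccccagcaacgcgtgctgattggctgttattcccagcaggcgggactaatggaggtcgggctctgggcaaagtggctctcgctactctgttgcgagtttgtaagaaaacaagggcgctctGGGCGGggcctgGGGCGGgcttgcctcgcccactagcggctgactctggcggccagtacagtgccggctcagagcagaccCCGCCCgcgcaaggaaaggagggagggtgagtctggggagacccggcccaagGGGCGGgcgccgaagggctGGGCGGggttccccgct
Cdkn1b (chr6:134920151-134920450, + strand): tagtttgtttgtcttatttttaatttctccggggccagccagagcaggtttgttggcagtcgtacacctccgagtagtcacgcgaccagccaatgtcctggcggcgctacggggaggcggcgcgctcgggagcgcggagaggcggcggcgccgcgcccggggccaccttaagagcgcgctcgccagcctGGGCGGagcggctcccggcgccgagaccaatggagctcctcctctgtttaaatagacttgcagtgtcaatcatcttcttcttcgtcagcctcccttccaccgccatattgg
Cdkn2b (chr4:89310983-89311282, - strand): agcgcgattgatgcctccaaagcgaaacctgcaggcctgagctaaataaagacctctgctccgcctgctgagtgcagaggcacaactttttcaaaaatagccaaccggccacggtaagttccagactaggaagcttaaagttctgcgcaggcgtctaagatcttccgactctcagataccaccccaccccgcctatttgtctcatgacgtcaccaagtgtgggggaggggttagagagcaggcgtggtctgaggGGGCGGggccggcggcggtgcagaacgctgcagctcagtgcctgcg

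The GC box was present 2 times in the Cdkn1a window, 5 times in the Cdkn2d window, and 1 time each in the Cdkn1b and Cdkn2b windows, searched on both strands with overlaps counted. The motif was thus found in windows of genes that were higher and of genes that were lower. In the member windows not shown, all of genes that were higher, it was present 0 to 4 times. The table of windows matched 7 of the 10 genes with 11 windows, of which 9 held a GC box, against 35.7% of all 32851 windows. Ccnd1, Ccnd2 and Cdkn1c had no entry. The 11 windows held 2 to 45 CpG (a C followed by a G), against a median of 7 over all windows. The 2 windows without a GC box were an upstream start of Cdkn1a (chr17:29090729-29091028) and a start of Cdkn2c (chr4:109665323-109665622). An E2F-type sequence, TTTCCCGC or its reverse complement, was found in 1 of the 11 windows, that of a Cdkn2a start (chr4:89294570-89294869, - strand), against 1.07% of all windows. Such matches describe the letters in the windows and not the binding of a factor.

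All 10 genes, each read by its brightest probe set, passed the threshold, a limma adjusted p under 0.05, and none had overlapping groups. Of these, 7 were higher in deficient colon and 3 lower, which were Ccnd2, Cdkn1b and Cdkn2b. Over all genes, 50.4% were called by the same rule, 21.9% higher and 28.4% lower, and 60.9% had groups without overlap. The number of calls therefore has to be read against an array on which calls were common. The median absolute log2 fold change was 0.53 over the 10 genes and 0.17 over all genes, and by probe set it was 0.28 over the 22 and 0.13 over all. This contrast was not matched for signal, and all members but Cdkn2a read at the 67.9 percentile or above by their brightest probe set. The members were also chosen with earlier results of these data known. No member changed by more than 2-fold, which 4.07% of all genes did. By probe set, 10 of 22 were higher, 7 lower and 5 not past the threshold, beside 39.8% called, 18.8% higher and 21% lower, over all probe sets. In addition, 18 of 22 had groups without overlap, beside 50% over all probe sets. The p-values, SEs and intervals measure only the spread between these arrays, taken as 1 mouse each from the study's text. Whether each array is a separate mouse was not tested in either group, so this spread may be technical alone. In whole colon RNA, fewer cells of a type and less RNA per cell cannot be told apart.

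**Figure D1:**
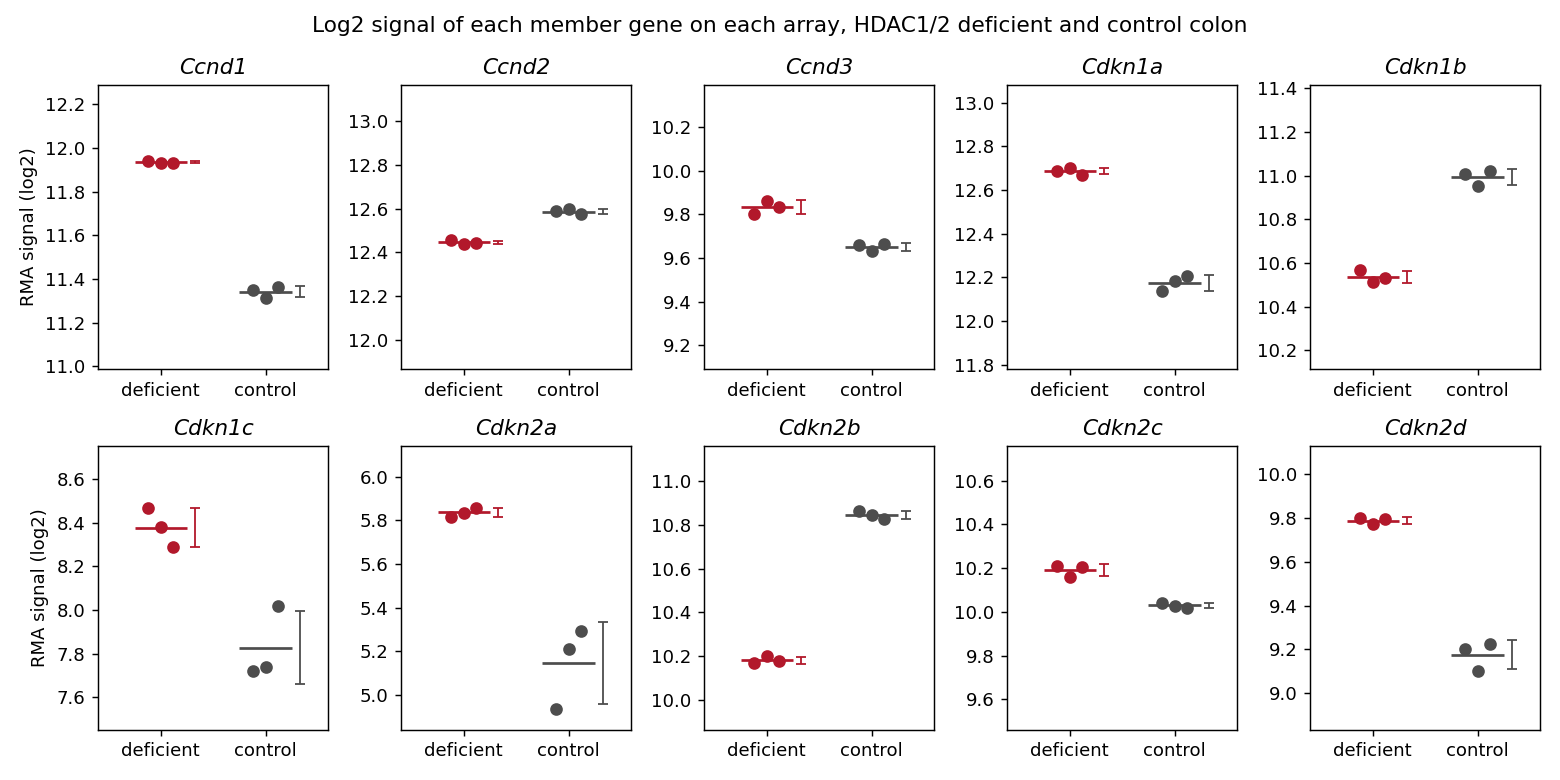
Log2 RMA signal of the brightest probe set of each gene on each array, deficient at the left and control at the right of each panel, with a line at the mean and a bar of 1 SD (n = 3 per group). The panels differ in level but span the same height, and the widest gap between groups is that of Cdkn2a (0.69), followed by Cdkn2b (-0.66).

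Among the D-type cyclins, Ccnd1, the cyclin D1 gene and a well-known target of Wnt signalling in crypt cells, was the one that moved most. Its brightest probe set (1417420_at) read 11.94, 11.93 and 11.93 on the log2 scale in deficient colon, against 11.35, 11.31 and 11.36 in control colon. All deficient arrays lay above all control arrays. The difference was 0.59 (SE 0.039, 95% CI 0.50 to 0.68), or 1.51-fold, with a limma adjusted p of 1.78e-05. The other probe sets of Ccnd1 gave 0.53 (1448698_at, adjusted p = 3.89e-05) and 0.59 (1417419_at, adjusted p = 5.74e-05). The 3 probe sets thus gave like values, although their mean signals ranged between the 76.7 and 95.2 percentiles of the array.

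Ccnd2, which encodes cyclin D2, had 7 probe sets that did not move together. The brightest (1434745_at) read 12.46, 12.44 and 12.44 in deficient colon, against 12.59, 12.60 and 12.58 in control colon. The groups did not overlap, and the difference was -0.14 (SE 0.038, limma adjusted p = 0.0204). The probe sets 1416122_at, 1455956_x_at and 1430127_a_at were lower as well, by -0.13 (adjusted p = 0.0483), -0.14 (adjusted p = 0.0459) and -0.14 (adjusted p = 0.0285). The remaining 3 did not pass, with 0.08 for 1448229_s_at (adjusted p = 0.181), 0.08 for 1416123_at (adjusted p = 0.317) and 0.01 for 1416124_at (adjusted p = 0.912). Of these, 1448229_s_at read 11.20, 11.29 and 11.27 in deficient colon, against 11.19, 11.14 and 11.18 in control colon, so its deficient arrays lay above its control arrays. The lower call of Ccnd2 held in 10 of the 16 alternatives without a fold minimum, the fewest among the 10 genes. It was lost without deficient array 1 (adjusted p = 0.0592), without deficient array 3 (0.0601), without control array 1 (0.0558) and without control array 2 (0.0549), with values of -0.14, -0.14, -0.14 and -0.13. With the mean of its 7 probe sets in place of the brightest, Ccnd2 differed by -0.05 (adjusted p = 0.230).

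Ccnd3, the cyclin D3 gene, rose by its brightest probe set and not by the others. That probe set (1415907_at) read 9.80, 9.86 and 9.84 in deficient colon, against 9.66, 9.63 and 9.66 in control colon. All deficient values were the higher ones, and the difference was 0.18 (SE 0.040, limma adjusted p = 0.00859). A second probe set (1444323_at) differed by 0.09 (adjusted p = 0.264), with overlapping groups. The dimmest (1438805_at, at the 21.0 percentile of signal) read 4.98, 4.99 and 4.98 in deficient colon, against 5.60, 5.34 and 5.13 in control colon. It was called lower, at -0.38 (adjusted p = 0.0263), with control arrays that spread far more (SD 0.238) than deficient arrays (SD 0.00616). That call was lost without deficient array 1 (adjusted p = 0.0645), 2 (0.0657) or 3 (0.0688) and without control array 2 (0.0612), with values between -0.37 and -0.38. The mean over the 3 probe sets of Ccnd3 was -0.03 (adjusted p = 0.626), of the opposite sign to the brightest one.

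Within the family, Ccnd1 moved by 0.73 more than Ccnd2 (95% CI 0.67 to 0.79) and by 0.41 more than Ccnd3 (95% CI 0.35 to 0.47) on the log2 scale. Both intervals leave out 0. An exact two-sided permutation test over the arrays gave p = 0.1 for either difference, the smallest that 3 against 3 arrays allow (0.12 after Benjamini-Hochberg over the 12 pairs compared within families).

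**Figure D2:**
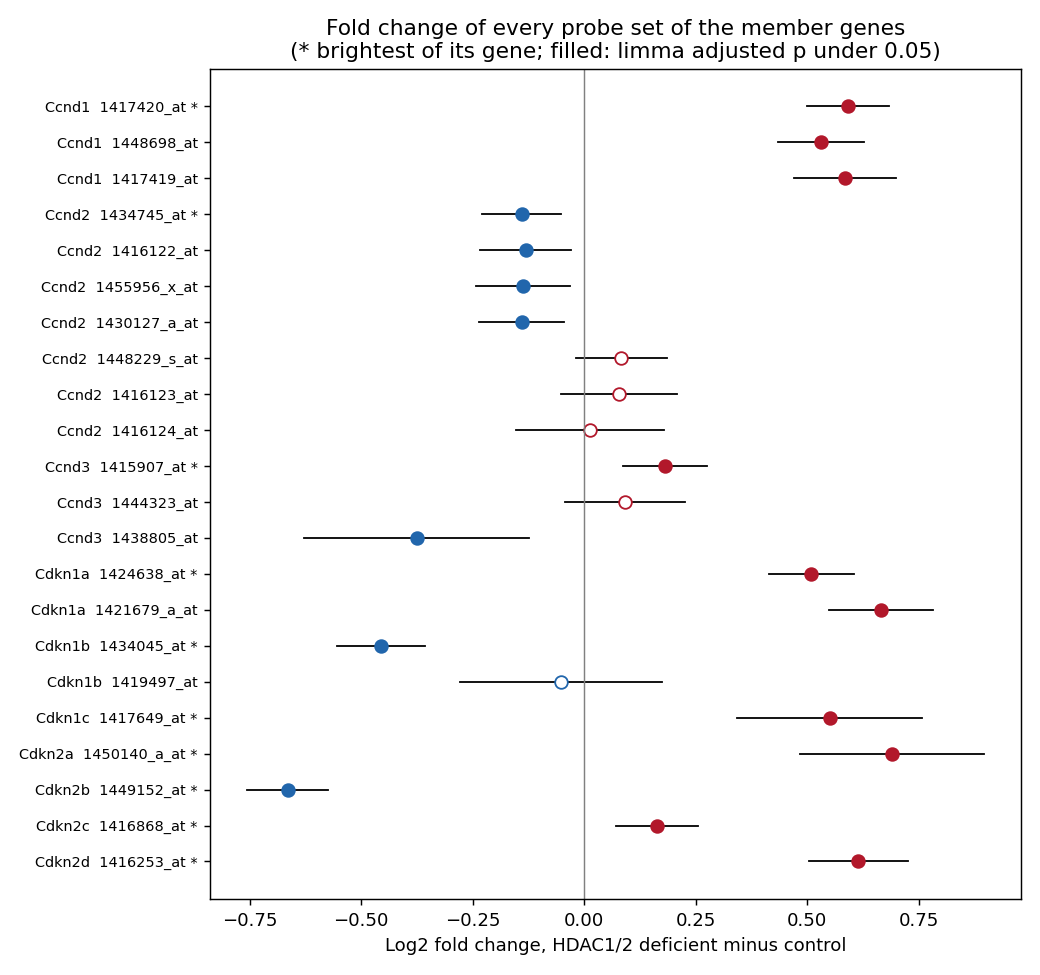
Log2 fold change (deficient minus control, horizontal axis) of all 22 probe sets, with bars of the 95% confidence interval, red above and blue below 0, filled where the limma adjusted p was under 0.05 and starred for the brightest of a gene. The 3 Ccnd1 probe sets lie together between 0.53 and 0.59, whereas Ccnd2 and Ccnd3 have probe sets on both sides of 0.

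Of the Cip/Kip inhibitors, Cdkn1a, which encodes p21, was higher in deficient colon on both of its probe sets. The brightest (1424638_at) read 12.69, 12.70 and 12.67 in deficient colon, against 12.14, 12.19 and 12.21 in control colon. The second (1421679_a_at) read 12.10, 12.11 and 12.06 in deficient colon, against 11.44, 11.35 and 11.49 in control colon. Neither had overlapping groups. The differences were 0.51 (SE 0.041, limma adjusted p = 4.61e-05), or 1.42-fold, and 0.66 (SE 0.050, adjusted p = 3.34e-05), or 1.59-fold. This is the gene whose window holds 2 GC boxes at one of its starts and none at the other, and which start each probe set reads is not known here.

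Cdkn1b, which encodes p27, moved the other way. Its brightest probe set (1434045_at) read 10.57, 10.51 and 10.53 in deficient colon, against 11.01, 10.95 and 11.02 in control colon. Every deficient array lay below every control array, by -0.46 (SE 0.042, 95% CI -0.55 to -0.36, limma adjusted p = 9.42e-05), which is 0.729-fold. The dim probe set of Cdkn1b (1419497_at, at the 28.2 percentile) gave -0.05 (95% CI -0.28 to 0.17, adjusted p = 0.723), with overlapping groups. The mean of both probe sets of Cdkn1b was -0.25 (adjusted p = 0.00679). Much of the control of p27 is known to act on the protein, which the arrays do not read.

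Cdkn1c, an imprinted gene that encodes p57, was read by 1 probe set (1417649_at). It gave 8.47, 8.38 and 8.29 in deficient colon, against 7.72, 7.74 and 8.02 in control colon. The groups did not overlap, although control array 3 lay nearer to the deficient arrays than the other controls did. The difference was 0.55 (SE 0.089, limma adjusted p = 0.00176), or 1.46-fold. With the methods' t-test, run per probe set, Cdkn1c passed before adjustment, as the methods used it, and had an adjusted p of 0.0521 after Benjamini-Hochberg.

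The change of Cdkn1a less that of Cdkn1b was 0.97 on the log2 scale (95% CI 0.86 to 1.07). The change of Cdkn1b less that of Cdkn1c was -1.01 (95% CI -1.28 to -0.74). For both the exact permutation p was 0.1, the smallest possible. Between Cdkn1a and Cdkn1c the changes differed by -0.04, with an interval of -0.30 to 0.22 (exact permutation p = 0.7), an interval that includes 0 and leaves room for a difference either way.

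Of the Ink4 inhibitors, Cdkn2b, which encodes p15 and is a known target of TGF-beta signalling, was the one that fell. Its probe set (1449152_at) read 10.17, 10.20 and 10.18 in deficient colon, against 10.86, 10.85 and 10.83 in control colon. The groups lay far apart for their spread (SD 0.0162 in deficient and 0.0189 in control colon). The difference was -0.66 (SE 0.039, 95% CI -0.76 to -0.57), or 0.631-fold, with a limma adjusted p of 9.80e-06, the lowest among the 22 probe sets.

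Cdkn2a lies beside Cdkn2b on chromosome 4, with 0 annotated genes between them in GRCm38.p6. The locus gives p16 from one transcript and p19Arf, an activator of p53, from another, and which of them the probe set reads is not given in the sources used here. Cdkn2a (1450140_a_at) read 5.82, 5.83 and 5.86 in deficient colon, against 4.94, 5.21 and 5.29 in control colon. The groups did not overlap, and the difference was 0.69 (SE 0.088, limma adjusted p = 5.18e-04), or 1.61-fold. The signal was dim, at the 26.2 percentile of the array, and the controls spread more (SD 0.187) than the deficient arrays (SD 0.0205). Cdkn2a passed the methods' t-test before adjustment and had an adjusted p of 0.0710 after it.

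Cdkn2d, which encodes the Ink4 protein p19, rose clearly. Its probe set (1416253_at) read 9.80, 9.77 and 9.79 in deficient colon, against 9.20, 9.10 and 9.23 in control colon. No array of one group came near the other. The difference was 0.61 (SE 0.047, limma adjusted p = 3.75e-05), or 1.53-fold.

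Cdkn2c, which encodes p18, changed least among the inhibitors by its brightest probe set. The array carried 1 probe set for it (1416868_at), which read 10.21, 10.16 and 10.21 in deficient colon, against 10.04, 10.03 and 10.02 in control colon. The deficient arrays were all higher, by 0.16 (SE 0.039, limma adjusted p = 0.0127), or 1.12-fold. Without deficient array 1 the value was 0.15 and the adjusted p 0.0521.

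The neighbours Cdkn2a and Cdkn2b thus moved in opposite directions, and the change of Cdkn2a less that of Cdkn2b was 1.35 (95% CI 1.02 to 1.68). The change of Cdkn2b less that of Cdkn2d was -1.28 (95% CI -1.41 to -1.15), and less that of Cdkn2c it was -0.83 (95% CI -0.90 to -0.76). Each of these pairs had the smallest exact permutation p, 0.1. Cdkn2a and Cdkn2d differed in their changes by 0.07, with an interval of -0.26 to 0.41 (exact permutation p = 1), which does not show that they acted alike. Of the 12 pairs within the 3 families, 10 reached the smallest p, and the others were Cdkn1a with Cdkn1c and Cdkn2a with Cdkn2d. The same count was not made over other pairs of genes, and 60.9% of all genes had groups without overlap. The count is therefore not read as a trait of the families.

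The genes around the members were read from a list of 26 partners and targets of the G1-S step. Of these 15 rose, 5 fell and 6 did not pass, with a median log2 fold change of 0.21, against 50.4% called and a median of -0.02 over all genes. E2f2, an activator of S-phase genes, read 10.16, 10.19 and 10.23 in deficient colon, against 8.23, 8.16 and 8.36 in control colon, a difference of 1.94 (limma adjusted p = 4.54e-07). Cks1b, a small CDK-binding protein that also helps the ubiquitin ligase of Skp2 to recognize p27, read 12.26, 12.27 and 12.22 in deficient colon, against 11.03, 11.02 and 11.08 in control colon, a difference of 1.21 (adjusted p = 8.68e-07). These were the only list genes above 2-fold. The E2F repressors E2f8 and E2f7 rose by 0.97 and 0.78, the activator E2f3 by 0.64 and the cyclin E gene Ccne2 by 0.61. One of the probe sets of E2f8 did not move (0.00), and the second probe set of E2f3 did not pass (0.18). E2f1 differed by 0.09 (limma adjusted p = 0.210).

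The direct partners of the D-type cyclins and their substrates were picked for their role after their values had been seen. Cdk4 rose on all 3 of its probe sets, with 10.35, 10.35 and 10.32 in deficient colon, against 10.02, 10.01 and 10.01 in control colon for the brightest, a difference of 0.33 (limma adjusted p = 3.14e-04). Cdk6 fell on all 3 of its probe sets, with 9.40, 9.49 and 9.25 in deficient colon, against 9.92, 9.82 and 9.89 in control colon for the brightest, a difference of -0.49 (adjusted p = 6.71e-04). Both kinases bind the same cyclins and the same Ink4 inhibitors, and their groups did not overlap in either case. Of the retinoblastoma family, Rb1 rose by 0.17 (adjusted p = 0.0119), while Rbl1 and Rbl2, which encode p107 and p130, fell by 0.21 and 0.53 (adjusted p = 0.0205 and 1.21e-04). For Rb1 and Rbl1 the other probe sets did not pass, and 1 of those of Rbl1 lay at 0.15.

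Of the 20 listed regulators of the members, 18 were analysed here, and 6 of them rose, 7 fell and 5 did not pass, with a median of -0.05. Over all genes 50.4% were called, 21.9% higher and 28.4% lower. Suz12, a subunit of Polycomb repressive complex 2, which is known to act on the Cdkn2a locus, rose by 0.61 (limma adjusted p = 1.18e-04) and on all 6 of its probe sets. Bmi1, a Polycomb protein known in mice as a repressor of Cdkn2a, read 9.47, 9.45 and 9.58 in deficient colon, against 10.04, 9.99 and 10.01 in control colon, a difference of -0.51 (adjusted p = 1.10e-04). Skp2, the ubiquitin ligase subunit that marks p27 for degradation, rose by 0.57 (adjusted p = 7.94e-05), with 3 of its 6 probe sets called. Foxo3, a transcription factor known to induce Cdkn1b, fell by 0.54 (adjusted p = 2.96e-04) on all 3 of its probe sets. Whether any of these changes bears on a member was not tested.

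**Figure D3:**
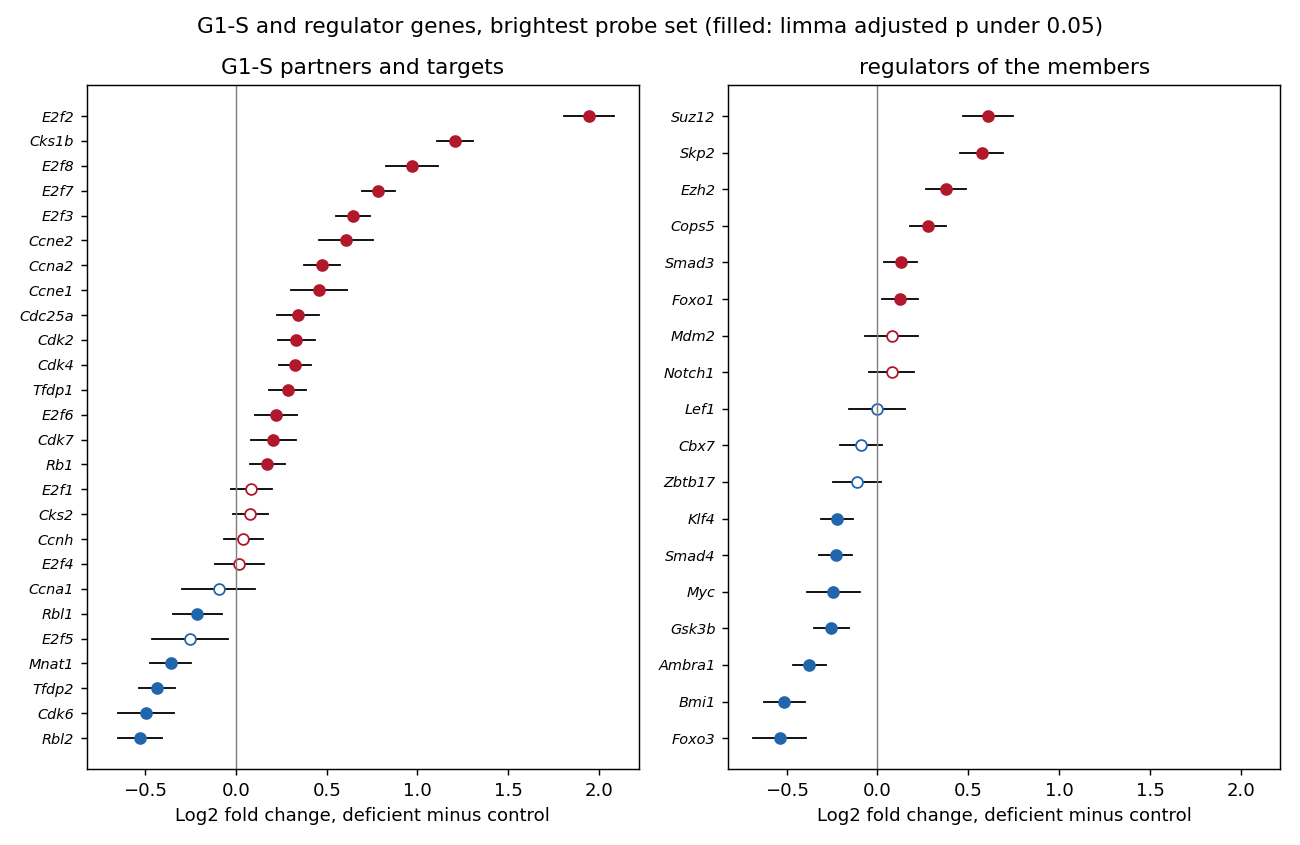
Log2 fold change (deficient minus control, horizontal axis) of the brightest probe set of 26 G1-S partners and targets (left) and 18 regulators of the members (right), with bars of the 95% confidence interval and filled points where the limma adjusted p was under 0.05. E2f2 (1.94) and Cks1b (1.21) stand apart at the top, and the regulators lie on both sides of 0, between Suz12 (0.61) and Foxo3 (-0.54).

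Whole colon holds several cell types that use the members, and their markers moved between the groups. All 7 markers of dividing cells that were analysed rose (median 0.62, Mcm5 0.92), with a summed level of 14.14 to 14.17 in deficient and 13.64 to 13.72 in control colon. Immune markers were higher, with 3 of 4 B cell markers (Cd79b 1.65, summed level 11.00 to 11.02 in deficient and 9.65 to 9.70 in control colon), 4 of 4 T cell markers (Cd3g 1.62, 9.97 to 10.08 and 9.02 to 9.13) and 5 of 5 macrophage markers (C1qa 1.33, 12.84 to 12.87 and 11.65 to 11.74). Smooth muscle markers were lower, 6 of 6 (Des -0.69, summed level 15.41 to 15.46 in deficient and 15.78 to 15.79 in control colon). Fibroblast markers went both ways, with 2 of 5 higher and 2 lower (Lum -0.89, 13.81 to 13.86 and 13.82 to 13.85), while 3 of 4 endothelial markers (Cdh5 -0.36, 9.56 to 9.70 and 9.77 to 9.83) and 2 of 3 neuron and glia markers (Elavl4 -0.39, 8.94 to 9.08 and 9.14 to 9.24) fell. The epithelial markers, which the tissue label asks for, rose in 4 of 8 cases and fell in 1 (Krt20 0.67, summed level 16.85 to 16.87 in deficient and 16.75 to 16.77 in control colon). The rises of Ccnd1, Cdkn1a, Cdkn1c, Cdkn2a and Cdkn2d and the falls of Cdkn1b and Cdkn2b thus went with changes of these lists, and the part of other cell types in them was not tested.

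**Figure D4:**
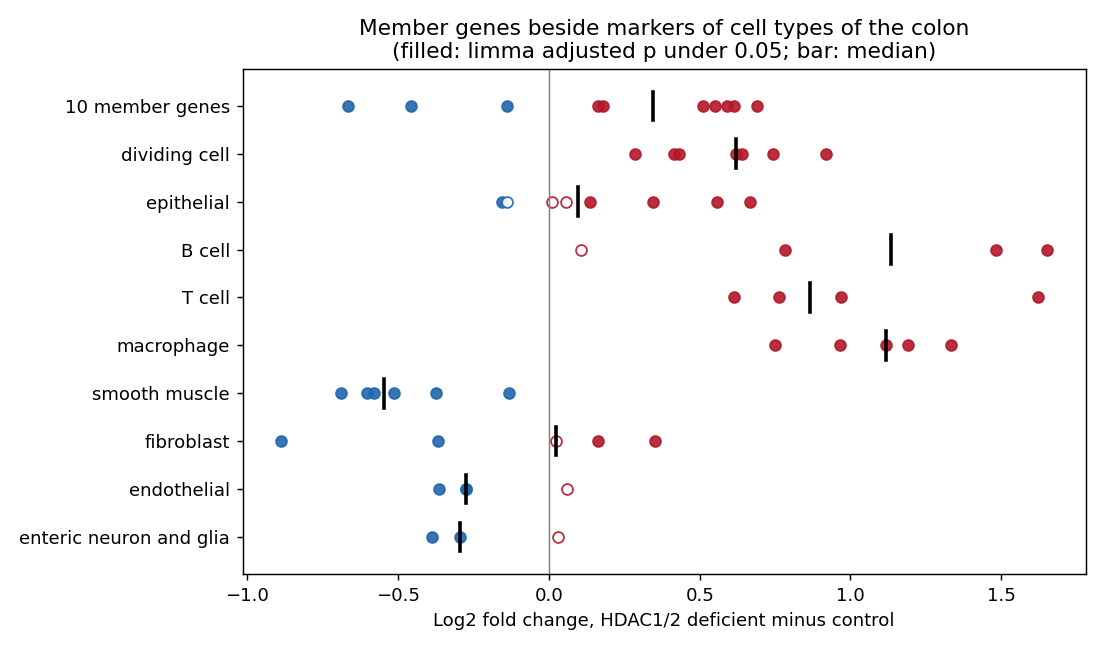
Log2 fold change (deficient minus control, horizontal axis) of the 10 genes (top line) and of the genes of 9 marker lists, 1 point per gene by its brightest probe set, filled where the limma adjusted p was under 0.05, with a bar at each median. The 10 genes lie between -0.66 and 0.69, a range that covers the medians of the dividing cell (0.62) and smooth muscle (-0.55) lists, while those of the B cell (1.13), macrophage (1.12) and T cell (0.87) lists lie above it. The pancreatic acinar (median 6.44) and squamous epithelium (median -2.27) lists are not drawn.

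Other facts of the whole array touch these values. Hdac1 fell by 1.30 on the log2 scale (limma adjusted p = 1.06e-06), with 9.27, 9.21 and 9.32 in deficient and 10.60, 10.53 and 10.56 in control colon, whereas the 3 probe sets of Hdac2 gave -0.07 to 0.05 and did not pass (adjusted p = 0.475 for the brightest), so Hdac2 checks no label. Pancreatic acinar markers were higher (4 of 4, Cela2a 7.40, summed level 14.28 to 14.33 in deficient and 8.33 to 8.49 in control colon), and squamous epithelium markers were lower (4 of 4, Krt6b -3.19, 8.72 to 8.76 and 10.77 to 10.87). Since Y-linked RNA was high on deficient arrays alone while Xist was high on all, the sex makeup of the RNA and the genotype cannot be told apart for any member. Every analysed gene of the acinar and squamous lists also had groups without overlap. The content of such tissue in the RNA and the genotype therefore cannot be told apart for any member either. Correlations over all probe sets were 0.9984 to 0.9988 among deficient arrays, 0.9984 to 0.9985 among control arrays and 0.9824 to 0.9828 between groups, and no 2 arrays were identical (0 pairs). The acinar level on deficient arrays (14.28 to 14.33) and the squamous level on control arrays (10.77 to 10.87) also varied little within the group. Whether the arrays of a group are repeats of 1 pool was not tested.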

How the data were processed

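Expression was measured in the colon of 3 HDAC1/2 deficient and 3 control mice. The deposited values are log2 values per probe set, background-corrected and normalized by the authors with RMA in Flexarray 1.6.1. They carry no detection call, so the depth of an array is its signal alone, and the number of arrays (3 per group) limits the precision. Of 45101 probe sets, 64 control probe sets were left out. In the platform annotation 34945 have 1 symbol, 932 several and 9160 none, and names came from probe sets with 1 symbol. limma 3.58.1 in R 4.3.3 (lmFit, eBayes, no covariate) was fitted over 45037 probe sets, with Benjamini-Hochberg adjustment over all of them and a threshold of 0.05. A gene is given by its brightest probe set. Percentiles rank mean signals over all probe sets. A list's summed level is the log2 of its genes' summed linear signals. Motifs were searched in the promoter windows by exact match. Plots were drawn with matplotlib 3.10.9.

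The members and lists were chosen with earlier results of these data known. The text names every member with every probe set, the 6 and 4 called genes with the largest absolute change of the G1-S and regulator lists, the gene with the largest change of each marker list, and Hdac1, Hdac2, Xist and Eif2s3y. The others named, E2f1, Cdk4, Cdk6, Rb1, Rbl1 and Rbl2, were chosen after their values were seen. The fit was tested on simulated data. Alternatives were the methods' t-test, trend and robust or array-weight settings, other normalization, a filter at the 40th percentile of signal, averaging the probe sets of each gene, a block for the replicate number, no probe sets of shared sequence, a 2-fold minimum and leaving out each array. The sources used here give no scan dates.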

Additional observations from a re-analysis of the deposited data

How the results depend on the processing

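Ccnd1, Cdkn1a, Cdkn1b, Cdkn2b and Cdkn2d kept their direction and stayed past the threshold in all 16 alternatives without a fold minimum, although the mean of its probe sets gave Cdkn1b -0.25 in place of -0.46. With a log2 fold change above 1 required, 0 member probe sets and 0 member genes were called in either direction, with 1255 probe sets and 741 genes in all, 2 higher and 0 lower G1-S genes and 0 higher and 0 lower regulators. Member probe sets called lower numbered 3 in place of 7 by the methods' t-test after Benjamini-Hochberg, under which calls over all probe sets numbered 12422 in place of 17933. Leaving out 1 array, they numbered 2 to 4 (2 without deficient array 1 or 3, 3 without control array 1, 4 without deficient array 2 or control array 2 or 3). In the same fits, 9 to 10 member probe sets were higher, 6 to 7 member genes higher and 2 to 3 lower, with 15582 to 16913 probe sets and 8176 to 8710 genes called in all. The lower call of Ccnd2 had adjusted p between 0.0445 and 0.0601 in those fits.

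The deviations of same-numbered arrays from their group means correlated at 0.0964, 0.0640 and -0.0258. Those of differently numbered arrays correlated at -0.103 to 0.0304. With 3 arrays per group these values cannot settle whether equal replicate numbers pair the arrays. With the replicate number as a block, 3 member probe sets were lower, and Ccnd2 had an adjusted p of 0.0533, with 17283 probe sets and 8785 genes called in all. No other member gene lost its call under the block.

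The sign turned for Ccnd2 1416124_at (-0.023 to 0.082 when leaving out 1 array) without deficient array 1 (-0.022), deficient array 3 (-0.023) or control array 2 (-0.023), for Cdkn1b 1419497_at (-0.147 to 0.028) without deficient array 2, and for Ccnd3 with the mean of its probe sets (-0.034). None of these passed the threshold, and the cause was not tested. The filter at the 40th percentile left out 3 member probe sets, among them that of Cdkn2a. With trend and robust settings, Ccnd2 1448229_s_at passed as higher (adjusted p = 0.0384). Dim signals limit Cdkn2a, Ccnd3 1438805_at and Cdkn1b 1419497_at.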
